A study of Mus musculus with 12 samples.

Results

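Glucose use by macrophages was followed at the level of RNA through 36 genes: 2 glucose transporters, 10 genes of hexokinase and upper glycolysis, 2 PFK-2 regulators, 6 genes of lower glycolysis, 6 genes of lactate and pyruvate fate, 4 genes of HIF control and 6 genes of the pentose phosphate pathway. The genes were chosen by symbol from the 55891 Ensembl identifiers of the deposited table. All 36 were found and all 36 passed the filter on low counts, among 13525 genes tested. The symbol Aldoa had a second identifier with 53 counts over all libraries, against 287147 for the one used.

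Glycolysis turns glucose into pyruvate in the cytosol, and lactate dehydrogenase turns pyruvate into lactate, which leaves the cell through monocarboxylate transporters. The pentose phosphate pathway branches off at glucose 6-phosphate. Its oxidative steps give NADPH, which macrophages use for the oxidative burst, for nitric oxide synthesis and for glutathione recycling, and its other steps exchange sugars with glycolysis and give ribose for nucleotides. HIF-1, a transcription factor whose alpha subunit is degraded after prolyl hydroxylation, is known to drive many glycolytic genes, and macrophages given bacterial lipopolysaccharide are known for high glucose uptake and lactate release.

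RNA was sequenced from bone marrow derived macrophages of mice that lacked Ptprz1, a receptor tyrosine phosphatase (KO), and of wild-type mice (WT). Marrow cells had grown for 6 days with M-CSF at 10 ng/mL, the growth factor that turns marrow progenitors into macrophages, in all groups. Cells of each genotype then received LPS at 100 ng/mL with IFNγ at 10 ng/mL for 24 h (M1 in the labels), IL-4 at 20 ng/mL for 24 h (M2 in the labels), or neither (control). That made 6 groups of 2 libraries: KO LPS+IFNγ, WT LPS+IFNγ, KO IL-4, WT IL-4, KO control and WT control. The strain label was B6.129-Ptprz1tm1Nmo for every sample, WT included, while titles of WT samples began with B6. The animals' ages and the number of animals behind each library were not given in the sources used here, so p-values measure the spread between these libraries, which may be technical.

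Total counts ran from 13665607 to 19555600 per library. Macrophage markers were high in all 12 libraries, Nos2 was at 4790 to 5782 CPM (counts scaled to library size with TMM factors) in the 4 LPS+IFNγ libraries, and Retnla had counts only in the 4 IL-4 libraries. Ptprz1 had counts in 1 library, WT IL-4 library 2 (0.344 CPM), so these data cannot check the knockout. Xist was at 232 to 618 CPM in the 6 WT libraries and at 0 in the 6 KO libraries, and Ddx3y at 86.3 to 111 CPM in KO and at 0 in WT. Genotype and sex therefore cannot be told apart here, which touches every comparison of KO with WT and in particular the X-linked members Pgk1, G6pdx and Pdk3. Stromal markers (11 listed, 10 past the filter) summed to 300 to 1353 CPM in KO libraries and 62.4 to 352 CPM in WT libraries, and their part in the results was not tested. KO LPS+IFNγ library 2 stood apart from KO LPS+IFNγ library 1 in several members and in S100a8, 1 of the granulocyte markers, as given beside those results.

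LPS+IFNγ raised most of these genes in both genotypes. In KO macrophages 22 of 36 members rose and 5 fell (75% called, against 53.3% of all genes tested; higher alone 27.2%, lower alone 26.1%). In WT macrophages 23 rose and 4 fell (75% called, against 54.3% of all genes; higher 27.4%, lower 27%). The median log2 fold change over the members was 1.08 in KO and 1.17 in WT, where the median over all genes tested was -0.01 in KO and -0.05 in WT. A total of 22 members (61.1%) rose in both genotypes, against 23.7% of all genes tested, and 3 members (8.33%), Ldhb, Pgls and Tkt, fell in both, against 22.6%. Aldoc and Pdk1 were called in KO alone and Eno2 and Egln1 in WT alone, and 7 members were called in neither. Calls come from the quasi-likelihood test of edgeR, with p-values adjusted by the Benjamini-Hochberg method over all 13525 genes and a threshold of 0.05. In bulk RNA, fewer cells of a type and less RNA per cell cannot be told apart.

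The members also took a larger part of each library. They held 2.19% to 2.53% of all counts in the 4 LPS+IFNγ libraries, against 1.07% to 1.25% in the 4 control libraries, with no overlap. Scaling by library size alone, without TMM factors, moved the median of all genes by -0.50 (log2) in both genotypes. The members' calls then split as 19 higher and 10 lower in KO and as 20 higher and 9 lower in WT. Gpi1 and Pgd lost their calls in both genotypes under that scaling, as did Pgam1 in KO and Egln1 in WT. Of the 22 members that rose in both genotypes, 19 were called higher in both under every alternative tried, and the exceptions were Gpi1, Pgam1 and Pgd. The 3 that fell in both were called lower in both under every alternative.

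**Figure D1:**
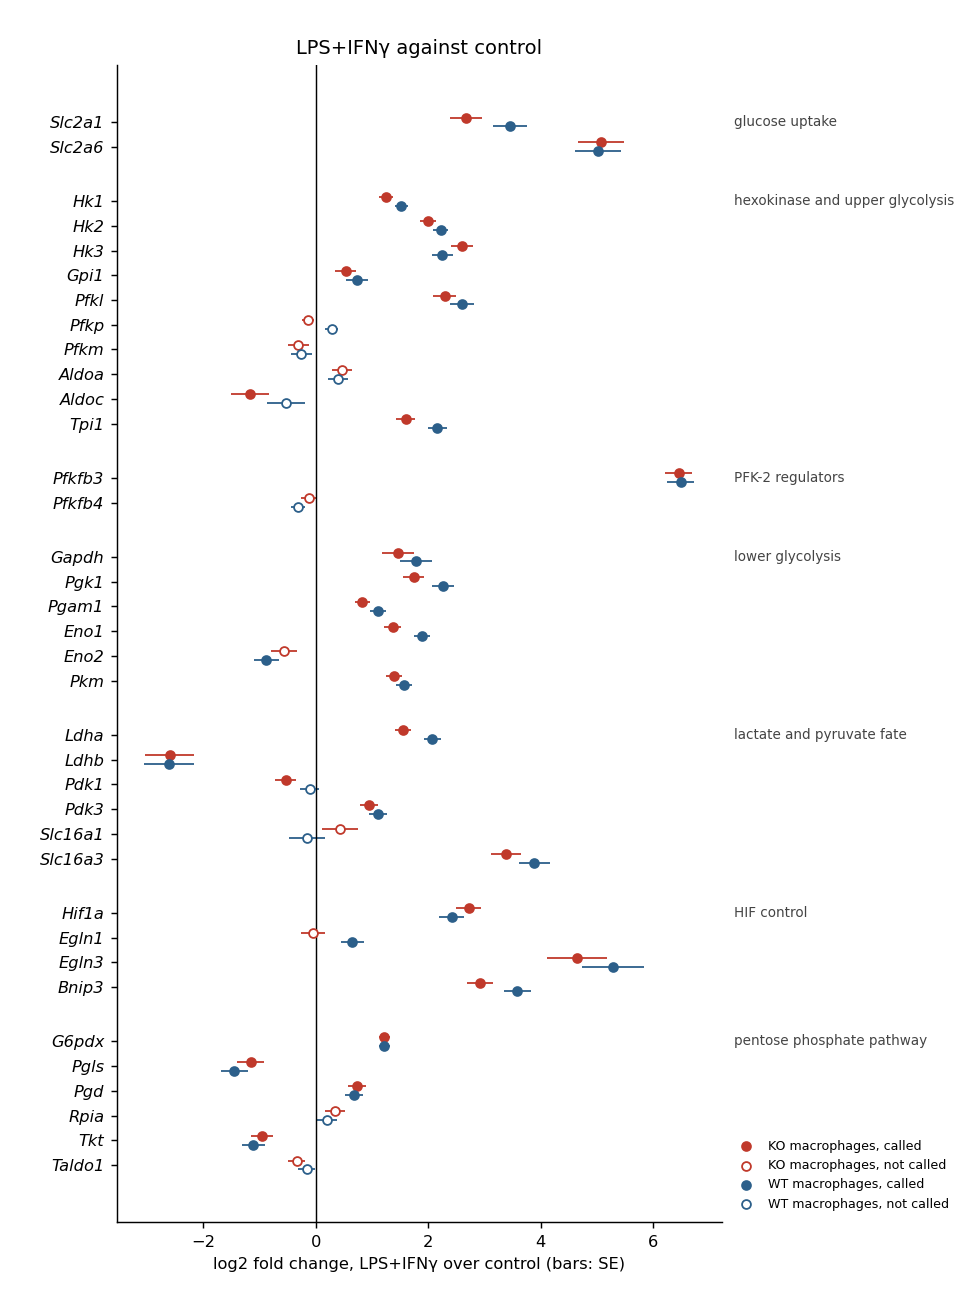
Log2 fold change of LPS+IFNγ over control for each of the 36 members, in rows by role, in KO macrophages (red) and WT macrophages (blue), 2 libraries a group; bars are standard errors and filled points passed the adjusted threshold of 0.05. Pfkfb3 lay farthest to the right at 6.46 in KO and 6.49 in WT, and Ldhb farthest to the left at -2.60 in KO and -2.61 in WT.

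The upstream windows of 8 members are shown because these genes span the range of responses to LPS+IFNγ: the strongly raised Slc2a6, Hk3, Hif1a and Egln3, the enzymes Pgk1 and Ldha, the lowered Ldhb and the uncalled Slc16a1. Each is the 250 bases before a RefSeq transcription start (GRCm38.p6), written in the gene's own direction, and none of the 8 holds a base of an annotated GENCODE M21 exon. Capitals mark ACGTG and GCGTG, the cores of the element that HIF-1 is known to bind, on either strand (CACGT and CACGC on the other). The windows are Slc2a6 at chr2:27027999-27028248 (minus strand), Hk3 at chr13:55021386-55021635 (minus strand), Pgk1 at chrX:106186850-106187099 (plus strand), Ldha at chr7:46845554-46845803 (plus strand), Ldhb at chr6:142507958-142508207 (minus strand), Slc16a1 at chr3:104638414-104638663 (plus strand), Hif1a at chr12:73907617-73907866 (plus strand) and Egln3 at chr12:54203875-54204124 (minus strand).
Slc2a6: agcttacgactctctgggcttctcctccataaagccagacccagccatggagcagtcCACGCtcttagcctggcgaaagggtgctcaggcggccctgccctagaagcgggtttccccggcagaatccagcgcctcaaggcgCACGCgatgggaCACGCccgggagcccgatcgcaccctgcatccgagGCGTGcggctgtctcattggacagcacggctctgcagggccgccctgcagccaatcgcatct
Hk3: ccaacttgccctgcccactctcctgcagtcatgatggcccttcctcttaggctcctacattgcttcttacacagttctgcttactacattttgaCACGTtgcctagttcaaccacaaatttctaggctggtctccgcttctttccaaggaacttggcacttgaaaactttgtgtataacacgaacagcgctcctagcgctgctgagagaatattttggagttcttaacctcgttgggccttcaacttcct
Pgk1: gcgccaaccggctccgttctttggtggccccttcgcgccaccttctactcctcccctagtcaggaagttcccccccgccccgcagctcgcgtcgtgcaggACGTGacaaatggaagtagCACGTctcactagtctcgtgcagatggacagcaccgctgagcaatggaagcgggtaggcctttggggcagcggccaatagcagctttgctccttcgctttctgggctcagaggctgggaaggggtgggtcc
Ldha: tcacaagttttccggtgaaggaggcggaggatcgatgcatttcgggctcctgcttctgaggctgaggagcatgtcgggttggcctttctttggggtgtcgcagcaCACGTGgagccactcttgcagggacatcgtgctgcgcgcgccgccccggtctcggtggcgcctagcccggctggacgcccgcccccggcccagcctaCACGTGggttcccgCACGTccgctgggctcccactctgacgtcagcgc
Ldhb: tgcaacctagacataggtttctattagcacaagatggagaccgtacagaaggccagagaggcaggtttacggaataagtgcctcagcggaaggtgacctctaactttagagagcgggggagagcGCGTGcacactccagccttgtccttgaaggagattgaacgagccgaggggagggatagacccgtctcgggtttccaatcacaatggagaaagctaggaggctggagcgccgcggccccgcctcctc
Slc16a1: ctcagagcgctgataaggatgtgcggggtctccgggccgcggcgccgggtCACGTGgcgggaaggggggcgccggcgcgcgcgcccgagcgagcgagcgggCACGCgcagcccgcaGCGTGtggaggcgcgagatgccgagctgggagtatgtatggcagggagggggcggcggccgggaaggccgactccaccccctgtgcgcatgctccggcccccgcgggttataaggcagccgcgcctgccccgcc
Hif1a: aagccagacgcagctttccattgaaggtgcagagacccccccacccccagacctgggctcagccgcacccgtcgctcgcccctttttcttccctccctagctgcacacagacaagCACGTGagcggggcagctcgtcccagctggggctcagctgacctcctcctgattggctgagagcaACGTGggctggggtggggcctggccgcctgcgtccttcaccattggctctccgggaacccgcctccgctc
Egln3: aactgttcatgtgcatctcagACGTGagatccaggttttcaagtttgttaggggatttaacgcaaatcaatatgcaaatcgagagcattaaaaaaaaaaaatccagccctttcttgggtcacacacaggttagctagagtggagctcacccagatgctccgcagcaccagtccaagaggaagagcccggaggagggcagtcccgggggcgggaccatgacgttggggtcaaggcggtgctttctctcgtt

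RefSeq gave 50 such windows for the 36 members, 10 of which had more than 1. ACGTG, searched on both strands, was in a window of 17 of 36 members (47.2%), against 24.9% of the 9874 tested genes with a window. It was in 13 of the 22 members that rose in both genotypes (59.1%) and in 4 of the 14 others (28.6%), while GCGTG went the other way, at 13 of 22 (59.1%) and 12 of 14 (85.7%). GCGTG, which differs from ACGTG in its first letter and so never matches at the same position, was in 25 members (69.4%), against 49.8% of tested genes with a window. A loose NF-κB form, GGG and CC with 5 free bases between them, was in 77.8% of members (72.7% of those that rose in both genotypes and 85.7% of the others) and 66.3% of tested genes. TTC and GAA with 4 free bases between them, a form known for STAT6, was in 13.9% of members (22.7% of those that rose in both and 0% of the others) and 5.84% of tested genes. Slc2a6 rose without ACGTG in its window, and Slc16a1 has the motif on both strands at a single place and was not called. These matches describe the letters in 250 bases only.

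Glucose enters through the transporters of the Slc2a family. Slc2a6 (ENSMUSG00000036067, chromosome 2, 27021363 to 27027998, GRCm38) encodes GLUT6, and Slc2a1 (ENSMUSG00000028645, chromosome 4, 119108711 to 119137983) encodes GLUT1, the widespread basal transporter. Slc2a6 had 177 and 169 CPM in KO LPS+IFNγ libraries and 210 and 189 CPM in WT LPS+IFNγ libraries, against 6.86 and 3.41 CPM in KO control and 7.68 and 4.63 CPM in WT control libraries. All 4 treated libraries lay far above all 4 control libraries. The rise was 33.5-fold in KO (log2 fold change 5.07 ± 0.41, SE, adjusted p = 8.26e-06) and 32.4-fold in WT (5.02 ± 0.41, adjusted p = 7.72e-06), and it was 5.66 (log2) in KO without control library 1, which moved the fold by more than 1.5 times. Slc2a1 had 350 and 414 CPM in KO LPS+IFNγ and 421 and 342 CPM in WT LPS+IFNγ libraries, against 41.1 and 78.9 CPM in KO control and 34.5 and 35.4 CPM in WT control libraries. KO control library 2 was the highest control, and the groups did not overlap. The rise was 6.37-fold in KO (2.67 ± 0.29, adjusted p = 5.16e-05) and 10.9-fold in WT (3.45 ± 0.30, adjusted p = 1.25e-05).

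Hexokinases trap glucose as glucose 6-phosphate, and all 3 measured forms rose in both genotypes. Hk3 (ENSMUSG00000025877, chromosome 13, 55005985 to 55021385), the form abundant in myeloid cells, had 1092 and 1670 CPM in KO LPS+IFNγ and 1160 and 1175 CPM in WT LPS+IFNγ libraries, against 221 and 235 CPM in KO control and 250 and 241 CPM in WT control libraries. The treated libraries were all several times above the controls, with KO LPS+IFNγ library 2 the highest. Its log2 fold change was 2.60 ± 0.20 in KO (adjusted p = 6.04e-06) and 2.25 ± 0.19 in WT (adjusted p = 1.16e-05). Hk2, known as an inducible form, rose 3.96-fold in KO and 4.65-fold in WT. Hk1, the constitutive form, rose 2.38-fold in KO and 2.86-fold in WT.

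Per kilobase of exon, Hk3 was the most abundant hexokinase in every condition. Averaged over the 4 libraries of a treatment, it stood at 346 ± 72.4 CPM per kb after LPS+IFNγ (SD), against 64.2 ± 3.31 CPM per kb in control. Hk2 stood at 32.5 ± 3.33 CPM per kb after LPS+IFNγ and 7.6 ± 1.13 CPM per kb in control, and Hk1 at 29.9 ± 3.79 and 11.4 ± 0.472 CPM per kb in those 2 conditions. Hk2 and Hk1 after LPS+IFNγ were within their spread of each other by this length, but by the longest transcript Hk1 stood at 59.6 CPM per kb and Hk2 at 35.1 CPM per kb. The Hk2 share of the 3 forms was 8.02% after LPS+IFNγ and 9.14% in control, with overlapping libraries (two-sided exact permutation test over 4 against 4 libraries, p = 0.229, adjusted p = 0.305). The shares of the other forms, which were not tested, did not overlap: Hk1 was at 5.04% to 9.14% after LPS+IFNγ and 13.1% to 15.1% in control, and Hk3 at 82.2% to 87.8% after LPS+IFNγ and 75% to 79% in control.

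The next enzymes of upper glycolysis moved unevenly. Pfkl (ENSMUSG00000020277, chromosome 10, 77986947 to 78010083), the liver-type phosphofructokinase that commits sugar to glycolysis, had 268 and 243 CPM in KO LPS+IFNγ and 308 and 265 CPM in WT LPS+IFNγ libraries, against 56.6 and 47.8 CPM in KO control and 47.3 CPM in both WT control libraries. The groups lay far apart and the libraries within each were close. Pfkl rose 4.89-fold in KO (2.29 ± 0.20, adjusted p = 1.48e-05) and 6.06-fold in WT (2.60 ± 0.21, adjusted p = 7.0e-06). The platelet type Pfkp had log2 fold changes of -0.14 in KO and 0.28 in WT, and the muscle type Pfkm of -0.31 in KO and -0.26 in WT, none of them called. Pfkp changed sign in WT under scaling by library size alone (-0.22), and its KO value was then called lower (-0.64), as was Pfkm in both genotypes (-0.81 in KO and -0.76 in WT). With the compared libraries alone, Pfkp was called higher in WT (0.27). An opposite-strand gene overlaps Pfkp (Pitrm1, with 46.2% as many counts), Pfkm (Senp1, with 277% as many) and G6pdx (Ikbkg, with 38.4% as many), and use of strand in counting is not given in the sources used here.

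The phosphofructokinase pool therefore had another make-up after treatment. Pfkp was 13.2% to 15.2% of the 3 forms per kilobase in the 4 LPS+IFNγ libraries, against 34.8% to 43% in the 4 control libraries. The mean share was 14.1% ± 0.85 after LPS+IFNγ and 37.3% ± 3.81 in control (SD, n = 4 each; exact permutation p = 0.0286, the smallest that 4 against 4 can give, adjusted p = 0.044 over 20 share tests). Shares do not depend on how libraries are scaled.

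Tpi1, the triose phosphate isomerase, rose 3.04-fold in KO and 4.46-fold in WT. Gpi1, the glucose 6-phosphate isomerase, rose 1.44-fold in KO (adjusted p = 0.0389) and 1.66-fold in WT (adjusted p = 0.00871). In KO it no longer passed without LPS+IFNγ library 1 or either control library, and in WT without LPS+IFNγ library 1 or control library 2. Aldoa, the main aldolase, had log2 fold changes of 0.47 in KO (adjusted p = 0.0505) and 0.39 in WT (adjusted p = 0.0917), which turned to -0.04 and -0.11 under scaling by library size alone. Aldoa was called higher in KO by DESeq2 (adjusted p = 0.0219) and without LPS+IFNγ library 1 (adjusted p = 0.00985), and in WT with the compared libraries alone (adjusted p = 0.00181). Aldoc, the brain-type aldolase, fell in KO (-1.17 ± 0.34, adjusted p = 0.0168) and was at -0.53 in WT. The Aldoc fall in KO was called with -1.83 without KO LPS+IFNγ library 1 and was not called without library 2 (-0.74) or without KO control library 2 (-0.77).

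The largest rise of all 36 members was in Pfkfb3 (ENSMUSG00000026773, chromosome 2, 11471433 to 11554077), which makes fructose 2,6-bisphosphate, the activator of phosphofructokinase, with high kinase and little phosphatase activity. It had 2716 and 3900 CPM in KO LPS+IFNγ and 2913 and 2602 CPM in WT LPS+IFNγ libraries, against 33.7 and 41.7 CPM in KO control and 31.4 and 30.1 CPM in WT control libraries. Every treated library was above every control library by a wide margin, and KO library 2 was the highest under both conditions. The rise was 87.8-fold in KO (log2 fold change 6.46 ± 0.24, adjusted p = 1.9e-07) and 89.7-fold in WT (6.49 ± 0.24, adjusted p = 1.68e-07).

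Pfkfb4, its relative from another gene, had 33.0 and 31.6 CPM in KO LPS+IFNγ and 28.5 and 28.1 CPM in WT LPS+IFNγ libraries, against 38.4 and 32.5 CPM in KO control and 38.5 and 32.1 CPM in WT control libraries. The groups overlapped, and Pfkfb4 was not called in either genotype (log2 fold change -0.13 in KO and -0.32 in WT). Under scaling by library size alone it was called lower in both. Pfkfb3 made up 98.1% to 98.8% of the pair per kilobase in LPS+IFNγ libraries, against 34.5% to 45.3% in control libraries (mean 98.4% ± 0.258 and 38.4% ± 4.76, SD, n = 4 each; exact permutation p = 0.0286, adjusted p = 0.044).

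**Figure D2:**
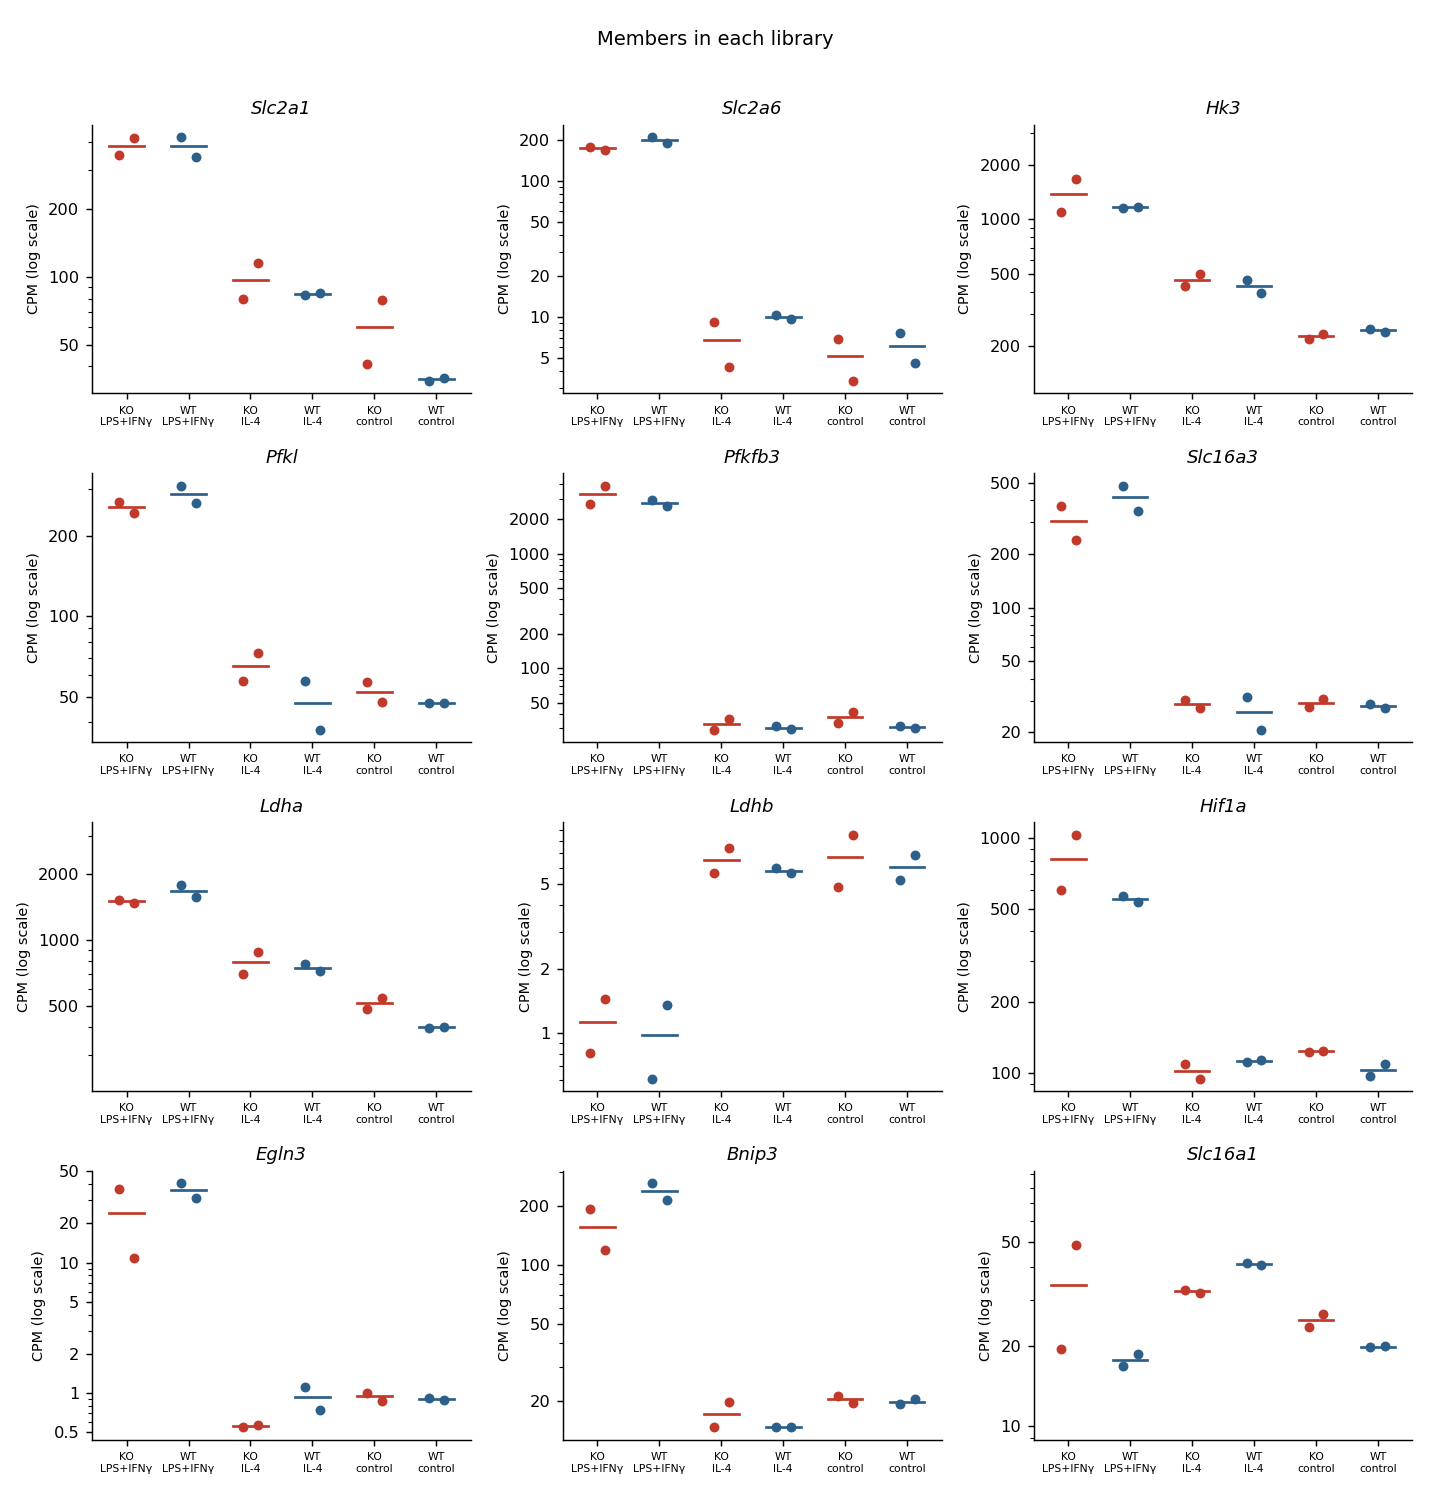
Level of 12 members in each of the 12 libraries, in CPM on log axes that differ between panels; each point is 1 library and each line the mean of a group of 2, with KO in red and WT in blue. For Pfkfb3 the 4 LPS+IFNγ libraries lie between 2602 and 3900 CPM and the 4 control libraries between 30.1 and 41.7 CPM, while for Slc16a1 KO LPS+IFNγ library 2 (48.7 CPM) stands above library 1 (19.5 CPM).

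In lower glycolysis 5 of 6 members rose in both genotypes, where 23.7% of all genes did. Pgk1, the phosphoglycerate kinase that gives the first ATP of the pathway, rose 3.35-fold in KO (1.74 ± 0.19, adjusted p = 4.58e-05) and 4.78-fold in WT (2.26 ± 0.19, adjusted p = 9.72e-06). Gapdh, the dehydrogenase before it, rose 2.74-fold in KO and 3.44-fold in WT, and Eno1, the main enolase, 2.58-fold in KO and 3.70-fold in WT. Pkm, the pyruvate kinase of the last step, rose 2.62-fold in KO and 2.97-fold in WT. Pgam1, the phosphoglycerate mutase, rose 1.78-fold in KO and 2.16-fold in WT. Gapdh, Pgk1, Eno1, Pkm, Pgam1, Tpi1, Aldoa and Ldha have many pseudogene copies in the mouse genome, so their counts are uncertain to the extent that reads were split.

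Pkm was the most abundant member per kilobase after LPS+IFNγ. In control libraries its mean was the highest, but it was within its spread of Aldoa (389 ± 53.5 CPM per kb). In IL-4 libraries Aldoa (492 ± 55.8 CPM per kb) and Pkm (481 ± 29.5 CPM per kb) were also within their spread. Pkm stood at 1280 ± 86.9 CPM per kb after LPS+IFNγ and 460 ± 33.3 CPM per kb in control (SD, n = 4 libraries). After LPS+IFNγ it was followed by Gapdh (981 ± 139 CPM per kb) and Pgk1 (909 ± 168 CPM per kb), which were within their spread of each other, and then by a run of members that overlapped in their spread from one to the next, from Aldoa (525 ± 109 CPM per kb), Ldha (481 ± 39.9 CPM per kb) and Pfkfb3 (401 ± 78.3 CPM per kb) to Pgam1 (381 ± 23.6), Eno1 (372 ± 54.3), Tpi1 (371 ± 65.4) and Hk3 (346 ± 72.4). The order within that run depended on the length used: per kilobase of the longest transcript, Eno1 (986 CPM per kb) was level with Aldoa (987) and above Ldha (877) and Pfkfb3 (632). In control libraries Pfkfb3 stood at 4.52 ± 0.687 CPM per kb, close to Pfkm (4.09 ± 0.629) and Aldoc (4.51 ± 1.31). The neuronal enolase Eno2 was low throughout. It had 4.52 and 3.29 CPM in KO LPS+IFNγ and 4.56 and 5.29 CPM in WT LPS+IFNγ libraries, against 5.62 and 6.04 CPM in KO control and 9.48 and 8.62 CPM in WT control libraries. It fell in WT (-0.88 ± 0.22, adjusted p = 0.00828), a call lost without WT LPS+IFNγ library 1 (adjusted p = 0.0639) or WT control library 1 (adjusted p = 0.051), and was at -0.57 in KO (adjusted p = 0.0646). As a share of both enolases, Eno2 was at 0.252% ± 0.0329 after LPS+IFNγ and 1.33% ± 0.468 in control (exact permutation p = 0.0286, adjusted p = 0.044).

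The lactate dehydrogenase subunits moved in opposite directions. Ldha (ENSMUSG00000063229, chromosome 7, 46841475 to 46855627), the subunit that favours lactate formation, had 1527 and 1486 CPM in KO LPS+IFNγ and 1783 and 1573 CPM in WT LPS+IFNγ libraries, against 484 and 544 CPM in KO control and 398 and 401 CPM in WT control libraries. All treated libraries were above all controls, and Ldha rose 2.93-fold in KO (1.55 ± 0.14, adjusted p = 1.9e-05) and 4.20-fold in WT (2.07 ± 0.15, adjusted p = 3.64e-06). Ldhb (ENSMUSG00000030246, chromosome 6, 142490249 to 142507957), the heart-type subunit that favours pyruvate formation, had 0.81 and 1.45 CPM in KO LPS+IFNγ and 0.613 and 1.36 CPM in WT LPS+IFNγ libraries, against 4.88 and 8.58 CPM in KO control and 5.25 and 6.85 CPM in WT control libraries.

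Every Ldhb value after LPS+IFNγ was below every control value, at levels where the lowest library held 9 counts. Ldhb was 6.06-fold lower in KO (-2.60 ± 0.44, adjusted p = 8.83e-04) and 6.11-fold lower in WT (-2.61 ± 0.44, adjusted p = 7.89e-04). The WT value was -3.29 without WT LPS+IFNγ library 2, a change of more than 1.5 times. Ldhb was 0.0724% to 0.206% of both subunits per kilobase in LPS+IFNγ libraries and 2.08% to 3.48% in control libraries (mean 0.143% ± 0.0615 and 2.87% ± 0.615; exact permutation p = 0.0286, adjusted p = 0.044).

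Lactate leaves cells through MCT4, encoded by Slc16a3, and passes in either direction through MCT1, encoded by Slc16a1. Slc16a3 (ENSMUSG00000025161, chromosome 11, 120948480 to 120960868) had 371 and 240 CPM in KO LPS+IFNγ and 482 and 349 CPM in WT LPS+IFNγ libraries, against 27.7 and 30.9 CPM in KO control and 28.8 and 27.4 CPM in WT control libraries. Treated and control libraries did not overlap, and KO LPS+IFNγ library 2 was the lowest treated library. It rose 10.4-fold in KO (3.38 ± 0.27, adjusted p = 7.5e-06) and 14.8-fold in WT (3.89 ± 0.27, adjusted p = 3.62e-06). Slc16a1 had 19.5 and 48.7 CPM in KO LPS+IFNγ and 16.8 and 18.7 CPM in WT LPS+IFNγ libraries, against 23.7 and 26.6 CPM in KO control and 19.8 and 20.0 CPM in WT control libraries. Only KO LPS+IFNγ library 2 was above the controls, and the other 3 treated libraries lay just below them.

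Slc16a1 was not called in KO (0.43 ± 0.32, adjusted p = 0.284) or WT (-0.16 ± 0.32, adjusted p = 0.697), and in KO its direction was set by 1 library. It was 0.95 (adjusted p = 3.4e-04) without KO LPS+IFNγ library 1 and -0.36 (adjusted p = 0.047) without library 2. Slc16a3 was 80.4% to 96% of the pair per kilobase in LPS+IFNγ libraries and 49.1% to 54.8% in control libraries (mean 91.1% ± 7.2 and 51.6% ± 2.84; exact permutation p = 0.0286, adjusted p = 0.044).

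Pyruvate dehydrogenase kinases hold pyruvate out of the mitochondrial oxidation step. Pdk3 had 23.8 and 19.6 CPM in KO LPS+IFNγ and 22.4 and 20.9 CPM in WT LPS+IFNγ libraries, against 12.7 and 9.9 CPM in KO control and 9.58 and 10.5 CPM in WT control libraries. It rose 1.92-fold in KO (adjusted p = 9.54e-04) and 2.15-fold in WT (adjusted p = 3.45e-04), with no overlap of treated and control libraries. Pdk1 had 62.9 and 41.8 CPM in KO LPS+IFNγ and 76.0 and 66.7 CPM in WT LPS+IFNγ libraries, against 76.3 and 76.4 CPM in KO control and 78.8 and 74.7 CPM in WT control libraries. It fell in KO (-0.54 ± 0.18, adjusted p = 0.0265), was at -0.11 in WT, and lost the KO call without KO LPS+IFNγ library 2 or either KO control library. Pdk1 was 41.2% to 52.8% of the pair per kilobase in LPS+IFNγ libraries and 66.4% to 73.1% in control libraries (exact permutation p = 0.0286, adjusted p = 0.044).

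Of the HIF genes, Hif1a encodes the regulated subunit itself, Egln1 and Egln3 the prolyl hydroxylases PHD2 and PHD3 that mark it for degradation, and Bnip3 a mitophagy receptor known as a HIF-1 target. Hif1a (ENSMUSG00000021109, chromosome 12, 73901375 to 73947530) had 599 and 1033 CPM in KO LPS+IFNγ and 564 and 534 CPM in WT LPS+IFNγ libraries, against 123 and 124 CPM in KO control and 96.9 and 109 CPM in WT control libraries. The treated libraries were all well above the controls, and KO LPS+IFNγ library 2 was the highest by far. Hif1a rose 6.61-fold in KO (2.72 ± 0.22, adjusted p = 9.21e-06) and 5.34-fold in WT (2.42 ± 0.22, adjusted p = 1.65e-05).

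Egln3 (ENSMUSG00000035105, chromosome 12, 54178981 to 54203860) had 36.7 and 10.9 CPM in KO LPS+IFNγ and 40.4 and 31.0 CPM in WT LPS+IFNγ libraries, against 1.01 and 0.877 CPM in KO control and 0.924 and 0.887 CPM in WT control libraries. Controls were near 1 CPM in every library, and the treated libraries were all above 10. The rise was 25.2-fold in KO (4.65 ± 0.54, adjusted p = 7.31e-05) and 39.2-fold in WT (5.29 ± 0.55, adjusted p = 3.44e-05). The KO value was 3.51 without KO LPS+IFNγ library 1 and 5.27 without library 2. Egln1 was at -0.05 in KO and rose in WT (0.65 ± 0.21, adjusted p = 0.0257), a call lost without WT LPS+IFNγ library 1 or either WT control library. Egln3 made up 24.4% to 41.3% of both hydroxylases per kilobase in LPS+IFNγ libraries and 1.76% to 2.46% in control libraries (exact permutation p = 0.0286, adjusted p = 0.044).

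Bnip3 (ENSMUSG00000078566, chromosome 7, 138890836 to 138909519) had 193 and 119 CPM in KO LPS+IFNγ and 262 and 216 CPM in WT LPS+IFNγ libraries, against 21.4 and 19.7 CPM in KO control and 19.3 and 20.6 CPM in WT control libraries. The control libraries of both genotypes were almost the same, and the treated ones spread more. Bnip3 rose 7.58-fold in KO (2.92 ± 0.23, adjusted p = 7.89e-06) and 12-fold in WT (3.58 ± 0.24, adjusted p = 2.79e-06).

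**Figure D3:**
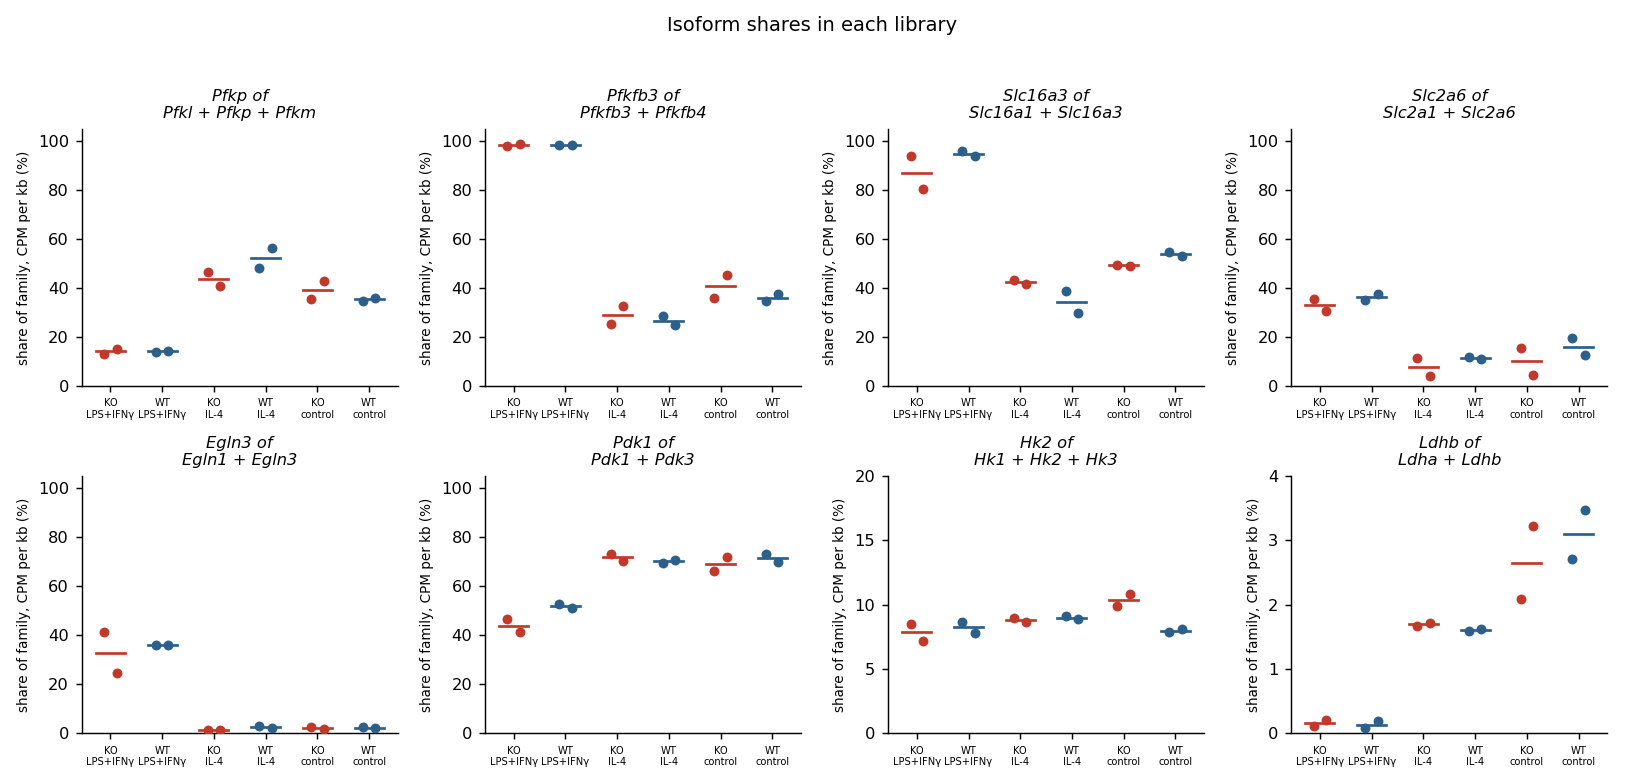
Share of 1 form in the summed level of its family (CPM per kb of exon, in %) in each of the 12 libraries, for 8 of the 10 families; each point is 1 library, each line the mean of a group of 2, KO in red and WT in blue, and the Hk2 and Ldhb axes end at 20% and 4%. Pfkfb3 is at 98.1% to 98.8% in the 4 LPS+IFNγ libraries and 34.5% to 45.3% in the 4 controls, while the Hk2 shares overlap.

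Of the 10 forms whose share was tested, 1 for each family, 9 differed after LPS+IFNγ, with no overlap between the 4 treated and 4 control libraries and an adjusted p of 0.044 each in the exact permutation test, and Hk2 did not pass. Slc2a6 was 30.8% to 37.7% of both glucose transporters per kilobase after LPS+IFNγ and 4.51% to 19.6% in control. Aldoc was 0.212% to 0.615% of both aldolases after LPS+IFNγ and 0.985% to 1.37% in control. With 1 library fewer, or with permutation inside each genotype, the smallest possible p is 0.0571 or 0.0556, so none of these could pass. With no overlap between treated and control libraries, their direction could not change in those alternatives.

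In the pentose phosphate pathway, 2 of the 6 members rose, 2 fell and 2 were not called, in both genotypes. With 27.2% of all genes higher and 26.1% lower in KO, and 27.4% and 27% in WT, that count is near the background. G6pdx, the glucose 6-phosphate dehydrogenase that opens the pathway and makes NADPH, had 496 and 575 CPM in KO LPS+IFNγ and 484 and 489 CPM in WT LPS+IFNγ libraries, against 230 and 231 CPM in KO control and 210 and 208 CPM in WT control libraries. The groups were tight and far apart, and G6pdx rose 2.33-fold in both genotypes (1.22 ± 0.10; adjusted p = 1.03e-05 in KO and 9.46e-06 in WT). Pgd, the 6-phosphogluconate dehydrogenase that makes NADPH a step later, had 771 and 924 CPM in KO LPS+IFNγ and 798 and 779 CPM in WT LPS+IFNγ libraries, against 455 and 560 CPM in KO control and 486 and 497 CPM in WT control libraries. It rose 1.67-fold in KO (adjusted p = 0.00343) and 1.60-fold in WT (adjusted p = 0.0052), calls that scaling by library size alone removed in both.

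Pgls, the lactonase between those dehydrogenases, went the other way. It had 18.3 and 17.6 CPM in KO LPS+IFNγ and 12.6 and 15.7 CPM in WT LPS+IFNγ libraries, against 45.5 and 34.6 CPM in KO control and 33.4 and 44.1 CPM in WT control libraries. No treated library reached a control library, and Pgls was 2.23-fold lower in KO (-1.16 ± 0.24, adjusted p = 0.00252) and 2.73-fold lower in WT (-1.45 ± 0.24, adjusted p = 6.57e-04). Tkt, the transketolase that returns sugars to glycolysis, had 230 and 301 CPM in KO LPS+IFNγ and 223 and 191 CPM in WT LPS+IFNγ libraries, against 487 and 546 CPM in KO control and 464 and 429 CPM in WT control libraries. It was 1.94-fold lower in KO (-0.96 ± 0.20, adjusted p = 0.00254) and 2.16-fold lower in WT (-1.11 ± 0.20, adjusted p = 0.00106).

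The other members of the non-oxidative arm were not called. Rpia, the ribose 5-phosphate isomerase, had log2 fold changes of 0.34 in KO and 0.19 in WT, which turned to -0.16 and -0.31 under scaling by library size alone. Taldo1, the transaldolase, was at -0.34 in KO (adjusted p = 0.0751) and -0.16 in WT (adjusted p = 0.379). Taldo1 was called lower in both under scaling by library size alone (-0.84 in KO and -0.66 in WT), and in KO by DESeq2 (adjusted p = 0.0489) and without control library 1 (-0.55). The interval of its difference was -0.67 to -0.01 in KO and -0.49 to 0.17 in WT (95%, log2).

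**Figure D4:**
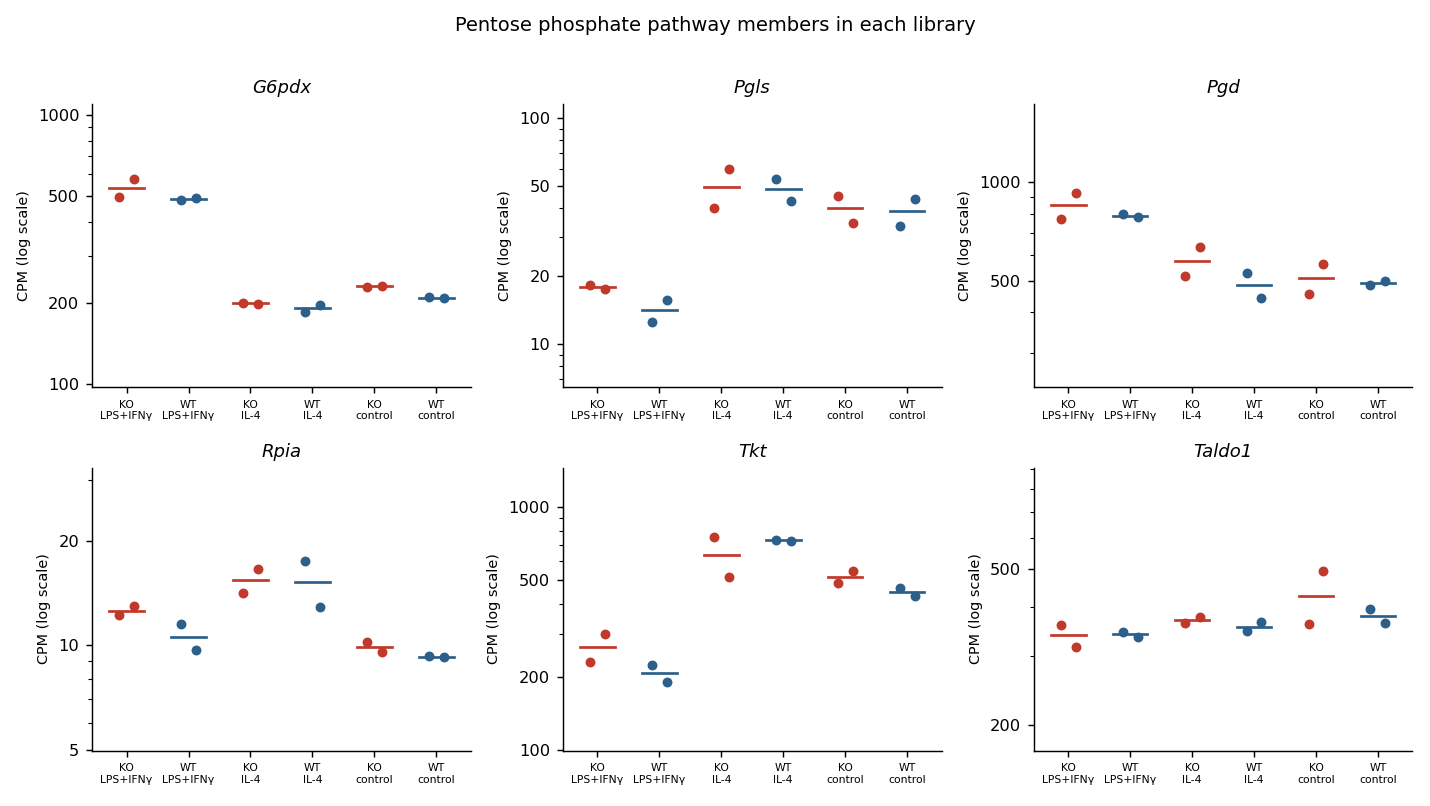
Level of the 6 pentose phosphate pathway members in each of the 12 libraries, in CPM on log axes that differ between panels; each point is 1 library and each line the mean of a group of 2, KO in red and WT in blue. G6pdx and Pgd are higher in all LPS+IFNγ libraries than in any control library (with the rise of Pgd not called under scaling by library size alone), while Pgls and Tkt are lower.

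IL-4 changed few of these genes, and by small factors. In KO macrophages 7 of 36 members rose and 0 fell (19.4% called, against 6.86% of all genes tested; higher alone 3.52%, lower alone 3.34%). In WT macrophages 10 rose and 0 fell (27.8% called, against 9.04% of all genes; higher alone 4.92%, lower alone 4.12%). At an unadjusted p under 0.05 there were 11 members in KO and 16 in WT. Of all 13525 genes tested, 3308 in KO and 3460 in WT were under that level. DESeq2 called 1 member lower in KO (Aldoc) and 0 in WT. The median log2 fold change of the members was 0.21 in KO and 0.36 in WT, against 0.00 and -0.02 over all genes. These comparisons use the same control libraries as those of LPS+IFNγ. The members held 1.30% to 1.38% of all counts in IL-4 libraries, against 1.07% to 1.25% in control libraries.

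A total of 6 members (16.7%) rose with IL-4 in both genotypes, against 2.45% of all genes tested: Hk3, Ldha, Hk2, Pgam1, Pfkp and Pfkfb4. Hk3 had 432 and 502 CPM in KO IL-4 and 463 and 396 CPM in WT IL-4 libraries, against 221 and 235 CPM in KO control and 250 and 241 CPM in WT control libraries. It rose 2.05-fold in KO (1.04 ± 0.19, adjusted p = 0.0142) and 1.75-fold in WT (0.81 ± 0.19, adjusted p = 0.0296). Ldha had 704 and 888 CPM in KO IL-4 and 779 and 722 CPM in WT IL-4 libraries, against the control values given above. It rose 1.55-fold in KO (0.63 ± 0.14, adjusted p = 0.0313) and 1.88-fold in WT (0.91 ± 0.14, adjusted p = 0.00607). IL-4 and control libraries did not overlap for either gene.

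Hk2 had 74.4 and 82.8 CPM in KO IL-4 and 80.7 and 67.9 CPM in WT IL-4 libraries, against 47.0 and 54.2 CPM in KO control and 40.4 and 39.9 CPM in WT control libraries. It rose 1.55-fold in KO (adjusted p = 0.0277) and 1.85-fold in WT (adjusted p = 0.00607). Pgam1 had 593 and 659 CPM in KO IL-4 and 629 and 603 CPM in WT IL-4 libraries, against 362 and 467 CPM in KO control and 350 and 364 CPM in WT control libraries. It rose 1.51-fold in KO (adjusted p = 0.038) and 1.73-fold in WT (adjusted p = 0.0112), and neither gene had a control library as high as an IL-4 library.

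Pfkp and Pfkfb4, which were not called with LPS+IFNγ against control in the reported fit, rose with IL-4. Pfkp had 145 and 136 CPM in KO IL-4 and 146 and 145 CPM in WT IL-4 libraries, against 92.7 and 109 CPM in KO control and 86.1 and 80.8 CPM in WT control libraries. It rose 1.39-fold in KO (0.48 ± 0.11, adjusted p = 0.0332) and 1.74-fold in WT (0.80 ± 0.11, adjusted p = 0.00338). Pfkfb4 had 55.9 and 49.0 CPM in KO IL-4 and 50.6 and 57.8 CPM in WT IL-4 libraries, above all 4 control libraries. It rose 1.48-fold in KO (0.56 ± 0.13, adjusted p = 0.0372) and 1.53-fold in WT (0.62 ± 0.13, adjusted p = 0.0227). Pfkfb3, in contrast, was at -0.19 in KO and -0.02 in WT, uncalled.

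Further IL-4 calls were made in 1 genotype. Eno2 rose in KO (0.99 ± 0.22, adjusted p = 0.0292) and was at 0.52 in WT. Slc2a1 rose in WT (1.26 ± 0.28, adjusted p = 0.0259) and was at 0.70 in KO, and Eno1 rose in WT (0.64 ± 0.14, adjusted p = 0.0267) and was at 0.31 in KO. Pdk3 rose in WT (0.69 ± 0.16, adjusted p = 0.0318) and was at 0.23 in KO, and Rpia rose in WT (0.71 ± 0.17, adjusted p = 0.0374) and was at 0.63 in KO (adjusted p = 0.0599). No member passed the interaction test of its IL-4 response between genotypes. None of the 4 HIF genes was called with IL-4: Hif1a was at -0.28 in KO and 0.12 in WT, and Egln3, at 0.547 and 0.568 CPM in KO IL-4 and 1.12 and 0.737 CPM in WT IL-4 libraries, at -0.76 in KO and 0.02 in WT.

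The IL-4 calls changed when single libraries were left out. In KO, leaving out IL-4 library 2 kept 1 call (Eno2), and leaving out control library 1 kept 0. In WT, 1 member (Pfkp) was called without WT IL-4 library 1, WT control library 1 or WT control library 2, and 4 (Hk2, Pfkp, Ldha and Rpia) without WT IL-4 library 2. With the 4 libraries of a comparison fitted alone, 0 members were called in KO and 21 in WT. Of the 21, 18 were higher and 3 lower (Aldoc, Hk1 and the HIF target Bnip3, at -0.43). The 2 libraries of a group differed more in KO groups (chi-square per gene of 48.4 to 54.9) than in WT groups (7.1 to 15.6). The reported fit pools the spread of all 6 groups, and the part of this difference in the calls was not tested. Without KO IL-4 library 1, Gapdh was called lower in KO (-0.87). The log2 fold changes of the 6 members kept their sign in each of these.

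**Figure D5:**
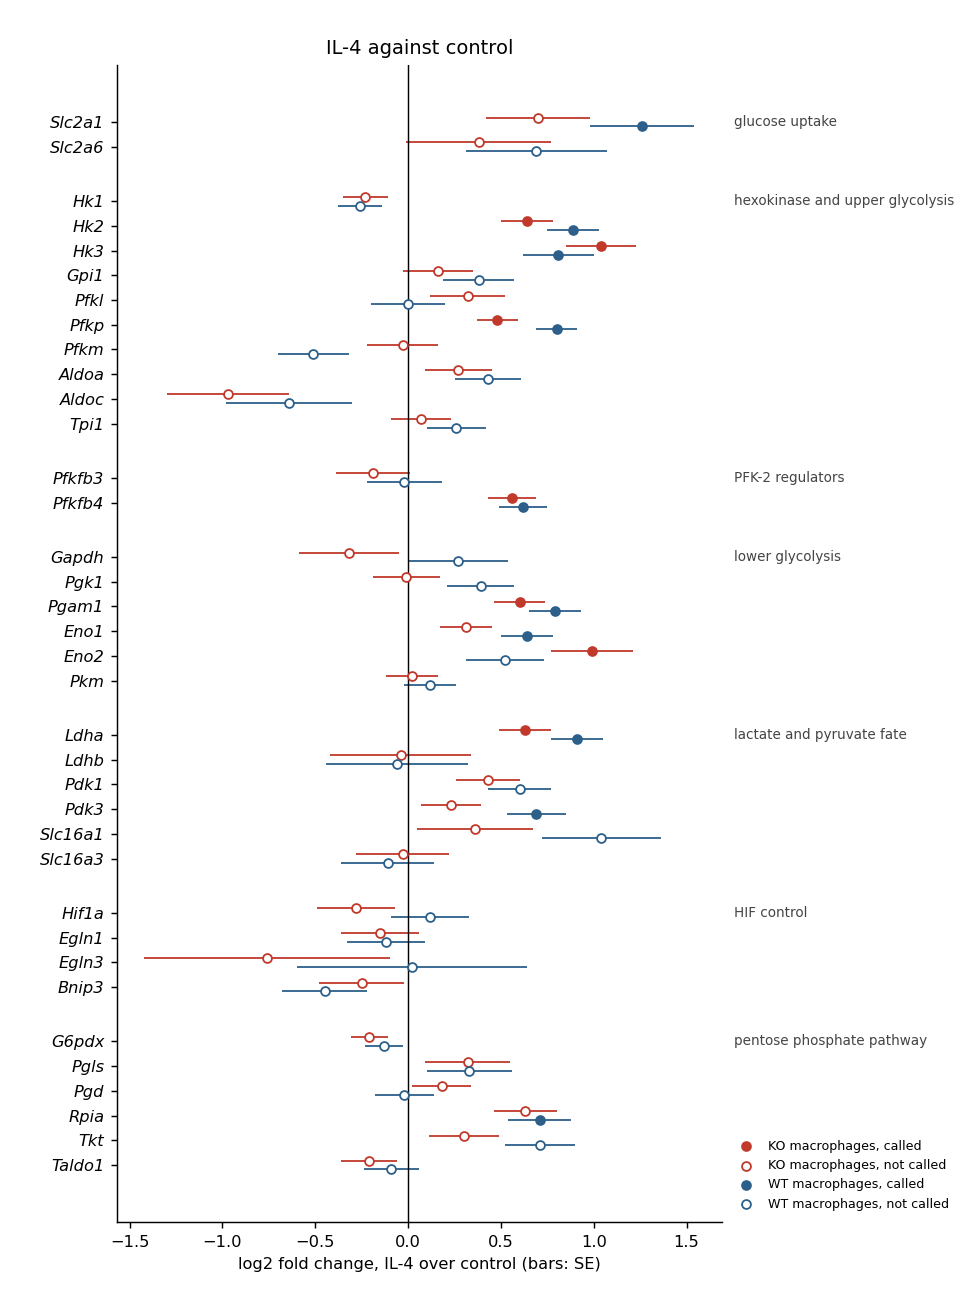
Log2 fold change of IL-4 over control for each of the 36 members, in rows by role, in KO macrophages (red) and WT macrophages (blue), 2 libraries a group; bars are standard errors and filled points passed the adjusted threshold of 0.05. The called members lie between 0.48 and 1.26, and the axis spans a much smaller range than that of LPS+IFNγ.

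Of the 10 forms whose share was tested, 1 for each family, 4 had a different share with IL-4. Pfkfb3 was 24.7% to 32.5% of the pair Pfkfb3 and Pfkfb4 per kilobase in IL-4 libraries, against 34.5% to 45.3% in control libraries (mean 27.8% ± 3.59 and 38.4% ± 4.76, SD, n = 4 each; exact permutation p = 0.0286, adjusted p = 0.044). Slc16a3 was 29.8% to 43.4% of both lactate transporters in IL-4 libraries, against 49.1% to 54.8% in control libraries, with the same p-values. The level of Slc16a3 was 27.4 ± 4.78 CPM in IL-4 and 28.7 ± 1.56 CPM in control libraries (SD, n = 4 each). That of Slc16a1 was 36.7 ± 5 CPM in IL-4 and 22.5 ± 3.28 CPM in control libraries. Ldhb was at 1.65% ± 0.0584 of both lactate dehydrogenase subunits in IL-4 libraries, against 2.87% ± 0.615 in control libraries. The level of Ldhb was 6.17 ± 0.823 CPM in IL-4 and 6.39 ± 1.69 CPM in control libraries, while Ldha rose as given above. Aldoc was at 0.515% ± 0.0201 of both aldolases in IL-4 libraries, against 1.13% ± 0.183 in control libraries. The Ldhb and Aldoc shares also passed at an adjusted p of 0.044 by the same permutation test. Pfkp was 40.9% to 56.2% of the phosphofructokinases in IL-4 libraries, against 34.8% to 43% in control libraries, and did not pass (exact permutation p = 0.0571, adjusted p = 0.0816). Other forms of these families, whose shares were not tested, also lay apart: Pfkm was at 14% to 16.6% in IL-4 libraries, against 19.3% to 26.9% in control libraries. Hk1 was at 6.28% to 7.21% in IL-4 libraries, against 13.1% to 15.1% in control libraries.

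Set against each other, LPS+IFNγ and IL-4 macrophages differed in most members. In KO 20 members were higher and 7 lower after LPS+IFNγ than after IL-4 (75% called, against 54.9% of all genes tested; higher 26.7%, lower 28.1%). In WT 20 were higher and 9 lower (80.6% called, against 56.2% of all genes; higher 28.1%, lower 28.1%). The 7 members lower after LPS+IFNγ in both genotypes were Ldhb, Eno2, Pgls, Tkt, Pdk1, Pfkfb4 and Pfkp. Pfkfb4 was at 33.0 and 31.6 CPM in KO LPS+IFNγ and 28.5 and 28.1 CPM in WT LPS+IFNγ libraries, against 49.0 to 57.8 CPM in the 4 IL-4 libraries. Its log2 fold change was -0.70 ± 0.13 in KO (adjusted p = 0.00172) and -0.94 ± 0.13 in WT (adjusted p = 2.72e-04). Pfkp was at -0.62 ± 0.11 in KO (adjusted p = 0.00105) and -0.52 ± 0.11 in WT (adjusted p = 0.00267).

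Pdk1 had 62.9 and 41.8 CPM in KO LPS+IFNγ and 76.0 and 66.7 CPM in WT LPS+IFNγ libraries, against 112 and 94.7 CPM in KO IL-4 and 122 and 111 CPM in WT IL-4 libraries. It was lower after LPS+IFNγ in KO (-0.97 ± 0.18, adjusted p = 0.00115) and WT (-0.70 ± 0.17, adjusted p = 0.00676). The WT value of Pdk1 was -0.61 without WT LPS+IFNγ library 2, where the call was lost. Tkt was 191 to 301 CPM in the 4 LPS+IFNγ libraries, against 514 to 757 CPM in the 4 IL-4 libraries, and the difference was -1.26 ± 0.20 in KO (adjusted p = 4.85e-04) and -1.82 ± 0.20 in WT (adjusted p = 4.72e-05). Slc16a1 and Rpia were called lower after LPS+IFNγ in WT and not in KO, and the difference between genotypes in this comparison was not tested. Slc16a1 had 16.8 and 18.7 CPM in WT LPS+IFNγ libraries, against 41.3 and 40.7 CPM in WT IL-4 libraries (-1.21 ± 0.32, adjusted p = 0.00986), and the call was lost without WT LPS+IFNγ library 1. Rpia was at -0.52 ± 0.18 (adjusted p = 0.0299) in WT and at -0.29 ± 0.17 (adjusted p = 0.182) in KO. In WT it was not called by DESeq2 or without the low-count filter. The WT value of Rpia was -0.29 without WT IL-4 library 1 and -0.4 without WT LPS+IFNγ library 2, uncalled in both.

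No member differed in level between genotypes past the threshold, and no KO effect could be told apart from sex. KO against WT called 0 of 36 in control libraries by edgeR, where 0.0739% of all genes were called. Among LPS+IFNγ libraries it called 0 members (all genes 0.0591%; higher 0.037%, lower 0.0222%), and among IL-4 libraries 0 members (all genes 0.0665%; lower 0.037%). Averaged over treatments it called 0 members (all genes 0.17%). DESeq2 also called 0 in each. At an unadjusted p under 0.05 the numbers were 5 (control), 5 (LPS+IFNγ), 1 (IL-4) and 2 (average). Over all 13525 genes tested, 1011 (control), 1119 (LPS+IFNγ), 453 (IL-4) and 1532 (average) were under that level. The lowest adjusted p of a member was 0.395, for Eno2 in the average. The difference in response between genotypes passed for no member with LPS+IFNγ or IL-4 (edgeR interaction and DESeq2, 0 members called each, edgeR background 0%). Unadjusted p-values of the edgeR interaction were under 0.05 for 5 members with LPS+IFNγ and 0 with IL-4. Over all 13525 genes tested, they were under 0.05 for 476 genes with LPS+IFNγ and 604 with IL-4.

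The members nearest to a difference were the following. In control libraries Slc2a1 had 41.1 and 78.9 CPM in KO and 34.5 and 35.4 CPM in WT (log2 fold change 0.78, 95% interval 0.15 to 1.41, adjusted p = 0.666). Ldha had 484 and 544 CPM in KO control and 398 and 401 CPM in WT control libraries (0.36, interval 0.05 to 0.68, adjusted p = 0.666). Eno2 had 5.62 and 6.04 CPM in KO control and 9.48 and 8.62 CPM in WT control libraries (-0.63, interval -1.12 to -0.14, adjusted p = 0.666). For each of these the KO and WT libraries did not overlap, yet the difference did not pass over all genes.

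After LPS+IFNγ the 5 members were Slc16a1 (0.93), Hif1a (0.57), Pdk1 (-0.44), Egln1 (-0.56) and Bnip3 (-0.62), with adjusted p-values of 0.574 to 0.590. KO LPS+IFNγ library 2 was the extreme library in each of them. Granulocyte markers (8 listed, 4 past the filter, Ly6g at 0 in every library) summed to 39.4 and 221 CPM in KO LPS+IFNγ libraries and 26.2 to 26.4 CPM in WT LPS+IFNγ libraries. S100a8 made up nearly all of each sum, at 220 CPM in KO LPS+IFNγ library 2 and 38.0 CPM in library 1. S100a9 was at 0 CPM in library 2 and 0.81 CPM in library 1. The part of these markers in the values above was not tested. Without KO LPS+IFNγ library 1, so with library 2 alone, the log2 fold changes of KO over WT were 1.45 (Slc16a1), 0.91 (Hif1a), -0.77 (Pdk1), -1.02 (Bnip3) and -1.71 (Egln3). These values rest on 1 KO library.

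Other genes of the same pathways, 58 by list and 45 past the filter, changed about as often as genes in general. With LPS+IFNγ, 15 rose and 13 fell in KO (all genes 27.2% and 26.1%), and 14 rose and 12 fell in WT (all genes 27.4% and 27%), with medians of -0.03 in KO and 0.06 in WT. Adm, which encodes the peptide adrenomedullin and is known as a HIF target, rose most (11.1 ± 2.66 CPM in KO LPS+IFNγ and 16.0 ± 0.299 CPM in WT LPS+IFNγ, against 0.505 ± 0.389 CPM in KO control and 0.468 ± 0.593 CPM in WT control, SD, n = 2 each; log2 fold change 4.45 and 5.08). Ero1l, an oxidase of the endoplasmic reticulum, rose by 2.28 in KO and 2.82 in WT, and Pgm1, a phosphoglucomutase, by 1.74 in KO and 2.47 in WT. Epas1, which encodes HIF-2α, was lower at 4.16 ± 1.10 CPM in KO LPS+IFNγ and 1.73 ± 1.39 CPM in WT LPS+IFNγ, against 62.5 ± 49.1 CPM in KO control and 29.3 ± 10.4 CPM in WT control (-3.93 in KO, adjusted p = 0.00154, and -4.08 in WT, adjusted p = 0.00182).

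Prps1 and Prps2, the synthetases that take ribose 5-phosphate towards nucleotides, fell with LPS+IFNγ. Prps1 was at -2.63 in KO (adjusted p = 3.11e-05) and -3.10 in WT (adjusted p = 1.25e-05), and Prps2 at -2.52 in KO (adjusted p = 1.41e-06) and -2.58 in WT (adjusted p = 1.13e-06). Bsg, named after its values were seen because basigin is the partner protein of both lactate transporters, rose by 0.90 in KO and 1.32 in WT. With IL-4, 1 of the 45 rose and 1 fell in KO (all genes 3.52% and 3.34%). In WT 2 rose and 3 fell (all genes 4.92% and 4.12%), so these counts are near the background. Slc16a7, which encodes the monocarboxylate transporter MCT2, fell in both: it was at 27.6 ± 5.70 CPM in KO IL-4 and 30.4 ± 2.09 CPM in WT IL-4, against 44.3 ± 8.71 CPM in KO control and 52.9 ± 2.82 CPM in WT control (SD, n = 2 each; -0.69, adjusted p = 0.0482, in KO and -0.80, adjusted p = 0.0241, in WT).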

How the data were processed

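The authors deposited 1 table of estimated counts per Ensembl gene, already whole numbers, for 12 libraries. FastQC 0.11.9, Salmon 1.10.2, R 4.4.1, DESeq2 1.45.3 and GRCm39 are named, without roles, per the submitters' processing notes. RNA came from a directional kit, per the labels' protocols. Members and gene lists were chosen with earlier results of these data known.

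Counts were used as deposited. Genes passed filterByExpr and were fitted in edgeR 4.0.16 (R 4.3.3) with TMM factors, 1 coefficient for each of the 6 groups and the quasi-likelihood F test. P-values were adjusted by Benjamini-Hochberg over all 13525 genes, and standard errors were taken from the log2 fold change and F. Library totals of 13665607 to 19555600 put 3 counts at 0.138 to 0.29 CPM. Family shares used CPM per kilobase of union exon length (GENCODE M21) and exact two-sided permutation of 4 against 4 libraries, genotypes pooled, adjusted over 20 tests (scipy 1.17.1). Gene positions are GRCm38, not converted to the authors' build. Promoter windows are from RefSeq. All members could be named; library values are given for those with the largest changes called in both genotypes and for isoform pairs, and some further members (among them the pentose phosphate genes) were added after their values were seen. Other pathway genes named are the largest called changes shared by both genotypes. The alternatives were DESeq2 1.42.0, its size factors, library size alone, no low-count filter, the compared libraries alone, a replicate block and leaving out each library. Scripts were tested on simulated data.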

Additional observations from a re-analysis of the deposited data

How the results depend on the processing

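The counts of members called for LPS+IFNγ against control and against IL-4 stayed within 1.5 times of the reported ones in every alternative (23 to 29 in KO and 24 to 32 in WT against control). The counts for IL-4 against control did not: with the compared libraries alone they were 0 in KO (reported 7) and 21 in WT (reported 10), and leaving out 1 library each gave 0 to 6 in KO and 1 to 4 in WT. KO against WT after LPS+IFNγ gave 0 to 5 members over the libraries left out (reported 0), with the 5 coming without KO LPS+IFNγ library 1, and the average over treatments gave 0 to 1. Without KO LPS+IFNγ library 1, calls over all genes rose as well, both after LPS+IFNγ and in the average. Whether the members rose beyond that background was not tested. Where a group kept 1 library, that library was assumed to vary like the others. The log2 fold change of Slc16a1 in KO ran from -0.36 to 0.95 (reported 0.43) and reversed without KO LPS+IFNγ library 2. The cause was not tested.

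Over all genes, IL-4 calls in KO were 928 as reported, 8 with the compared libraries alone, 1620 without the filter and 1640 with DESeq2, and in WT 1222 as reported, 3475 with the compared libraries alone and 1840 with DESeq2. KO against WT called 10, 8, 9 and 23 genes (control, LPS+IFNγ, IL-4, average), against 107, 81, 33 and 312 without the filter, 66, 35, 18 and 96 with DESeq2, and 27, 21, 36 and 173 with a replicate block.

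Same-numbered libraries deviated together (r over 0.1) in 14 of 15 pairs of groups, with the lowest at 0.046 and the highest at 0.337. The sources used here do not state that the numbers pair the libraries, so the reported fit has no block for them. With a replicate block, 28 members were called for LPS+IFNγ in KO (Aldoa added, adjusted p = 0.0474) and 27 in WT, 7 for IL-4 in KO and 13 in WT, 27 and 30 for LPS+IFNγ against IL-4, and 0 in each comparison of genotypes or interaction. With 2 libraries a group and 1 comparison of genotypes that coincides with sex, differences of small size between KO and WT were not detectable here.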

Other observations

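The response of the members to LPS+IFNγ was compared between genotypes gene by gene. The interaction (log2, KO response minus WT response) had a median of -0.19 over the 36 members and 0.01 over all genes tested, and 0 members passed. The median of KO over WT for the members was 0.17 in control libraries and -0.05 after LPS+IFNγ, against 0.01 over all genes in each. Genotype coincides with sex in all of these values. The 5 members at an unadjusted p under 0.05 were all negative: Egln1 at -0.69, Tpi1 at -0.56, Ldha at -0.52, Eno1 at -0.52 and Pfkp at -0.42, each with an adjusted p of 0.991 in edgeR. For Tpi1, with 1063 and 779 CPM in KO LPS+IFNγ and 1213 and 1030 CPM in WT LPS+IFNγ libraries, against 288 and 318 CPM in KO control and 251 and 252 CPM in WT control libraries, KO LPS+IFNγ library 1 lay between the WT libraries and library 2 below both.

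Arg1, the arginase that competes with Nos2 for arginine, was at 564 and 152 CPM in KO LPS+IFNγ and 498 and 383 CPM in WT LPS+IFNγ libraries. KO LPS+IFNγ library 2 was again the lowest, as for Egln3, Bnip3, Slc16a3 and Pdk1.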
